A study of Mus musculus with 4 samples.

Results

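The clonal lines 1F4 and 1A2 of E14 mouse embryonic stem cells, which carry the same pair of operator arrays on chromosome 15, were compared here. They are 1F4, in which the promoters of the resistance cassettes were kept beside the arrays, and 1A2, in which they were not. Neither line has the 3xCTCF sites that other cells of the study carry next to the arrays. The comparison covers all bin pairs of the captured regions of chromosomes 15 and 1 up to 2 Mb apart, which makes 217442 of the 267657 pairs of bins in the captured regions. Of these, 93587 lie on chromosome 15, 123855 lie on chromosome 1, and 2715 hold a bin of an array or a bin next to one. The arrays were not targeted to chromosome 1, which gives the difference between the lines away from the arrays; where the repressor transgenes integrated was not analysed here. Each line was measured once, in 1 of the 4 libraries of the series.

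The measurement was tiled Capture-C, in which crosslinked chromatin is cut with MboI and religated, and ligation products from chosen regions are enriched with oligonucleotides and counted. Both lines were grown as pluripotent cells and derive from one parent in which the CTCF sites inside the receiving domain had been deleted. As they are separate clones, the retained promoters cannot be told apart from other differences between the clones or between their single libraries. Both carry a TetO and a LacO array on a single allele, the fluorescent repressors TetR-tdTomato and LacI-eGFP that bind them, and RAD21, a cohesin subunit, tagged with HaloTag and FKBP on both alleles. No cohesin was degraded in either library. In the line with promoters, the study places a resistance gene with a mouse Pgk1 promoter next to each array. The GEO labels describe 1A2 and 1F4 in the same words, so the presence of promoters is known from the study's text alone. The TetO array was integrated with a puromycin resistance gene and the LacO array with a neomycin resistance gene. The sources used here do not name the clone from which 1F4 was derived. Whether 1F4 kept a cassette at both arrays was therefore not checked beyond the study's text. The inserted DNA is not in the reference genome, and the array bins therefore report the genomic sequence around each insertion. The second allele carries no array, so it adds unmodified contacts to every value.

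Topologically associating domains (TADs) are stretches of chromosome whose sequences contact each other more often than sequences beyond their borders. Cohesin is thought to form them by extruding loops until it meets CTCF. Transcribed genes are also known to affect contacts, because promoters can contact each other and because RNA polymerase can stand in the way of cohesin. The Pgk1 promoter is active in nearly all cell types, since its gene encodes the glycolytic enzyme phosphoglycerate kinase.

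The insertion sites are shown because every contact described below is measured from them. The integration guides each matched 1 place in NCBIM37 (mm9), and capitals mark the guide and its PAM on the plus strand. The LacO guide lies at chr15:11496892-11496911 in the bin chr15:11494401-11500800, and the TetO guide at chr15:11647356-11647375 in the bin chr15:11641601-11648000. Neither bin overlaps an annotated gene, and the cut sites are 150.464 kb or 23 bins apart.
LacO insertion site: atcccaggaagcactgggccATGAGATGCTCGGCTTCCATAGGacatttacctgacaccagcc
TetO insertion site: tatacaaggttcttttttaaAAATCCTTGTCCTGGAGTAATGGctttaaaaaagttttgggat

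Genomic promoters are shown because Pgk1 is the type kept in 1F4, Tars starts beside the upstream border of the domain, and the LacO windows past 1.5-fold lay around the start of Npr3. Capitals mark a GC box, searched as GGGCGG on both strands, in the 250 bases before the annotated start. The Pgk1 promoter is that of the endogenous gene (RefSeq, GRCm38.p6, chrX:106186850-106187099, plus strand); the sequence of the cassette was not analysed here. The Tars promoter (chr15:11329414-11329663) and the Npr3 promoter (chr15:11835430-11835679) were read from NCBIM37 on the minus strand.
Pgk1: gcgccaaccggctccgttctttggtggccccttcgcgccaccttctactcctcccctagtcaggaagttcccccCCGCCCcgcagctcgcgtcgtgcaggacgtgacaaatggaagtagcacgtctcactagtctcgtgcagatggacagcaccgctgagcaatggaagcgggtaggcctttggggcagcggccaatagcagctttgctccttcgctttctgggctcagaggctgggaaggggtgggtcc
Tars: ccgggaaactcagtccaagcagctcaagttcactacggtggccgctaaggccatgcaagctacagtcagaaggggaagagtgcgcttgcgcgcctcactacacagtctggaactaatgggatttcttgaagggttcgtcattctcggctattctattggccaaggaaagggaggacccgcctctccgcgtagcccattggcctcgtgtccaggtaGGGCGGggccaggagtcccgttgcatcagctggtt
Npr3: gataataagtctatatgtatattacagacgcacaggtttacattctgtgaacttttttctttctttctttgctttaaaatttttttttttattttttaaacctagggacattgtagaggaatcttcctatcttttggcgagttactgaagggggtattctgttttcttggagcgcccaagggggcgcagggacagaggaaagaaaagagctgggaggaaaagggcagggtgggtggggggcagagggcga
Pgk1 and Tars hold 1 GC box each and Npr3 holds none, while 32.7% of 32817 RefSeq promoters hold one in the same 250 bases. Npr3 also has fewer CpG dinucleotides, 5 against 17 in Pgk1 and 14 in Tars, next to a median of 6 over all promoters.

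The depth recovered from the maps was 3214144 read pairs in 1A2 and 4089968 in 1F4, of which 1225535 and 1558596 lay on chromosome 15. Contact was expressed as observed/expected, the balanced value of a bin pair over the mean at the same separation in the same region, averaged over windows of 3 by 3 bins of 6.4 kb. Errors after ± are Poisson errors of the recovered reads, 1 standard error wide, and cover counting error only. With 1 library per line no test across cultures can be made, and the spread over chromosome 1 is given in its place as a description. Over 35741 windows on chromosome 1 with at least 100 reads in both lines together, the log2 ratio of 1F4 to 1A2 had a standard deviation (SD) of 0.235. Counting alone gives an SD of 0.221, and the variance beyond it corresponds to an SD of 0.0792. On chromosome 15 the SD was 0.243 over 26555 windows, with 0.225 from counting and 0.0917 beyond it.

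The arrays contacted each other more often in the 1F4 library than in that of 1A2. The LacO-TetO window had an observed/expected value of 1.05 ± 0.104 in 1A2 from 119 reads and of 1.51 ± 0.113 in 1F4 from 212 reads. The log2 ratio was 0.52 ± 0.178, a 1.44-fold difference with a 95% counting interval of 1.13 to 1.83. Of the 526 windows with the same separation on chromosome 1, 8 had a higher ratio. On chromosome 15, 8 of 425 did, so the pair lay at percentiles 98.5 and 98.1. Windows on these chromosomes overlap their neighbours and are not independent of each other. In the line with 3xCTCF sites, 1B1, the same window was at 1.85 ± 0.132, and in 1B1 with cohesin degraded it was at 1.57 ± 0.148 (134 reads). The value of 1A2 was thus the lowest of the 4 libraries.

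**Figure D1:**
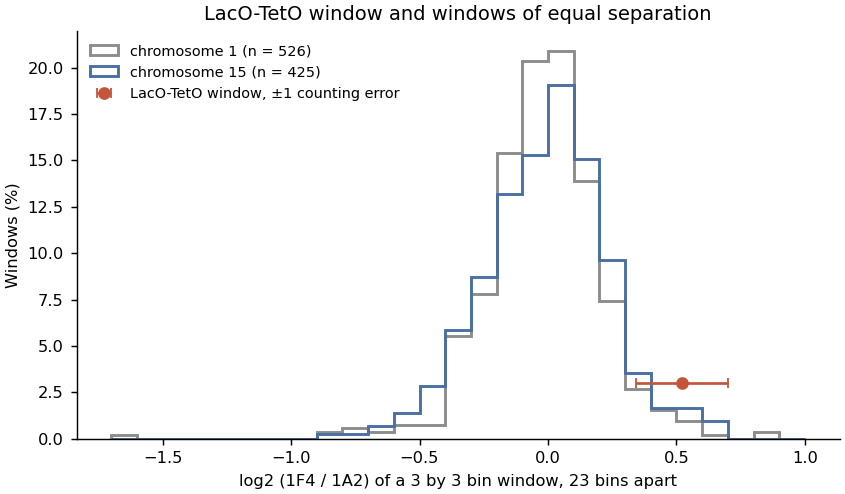
Distribution of the log2 ratio of 1F4 to 1A2 (x axis) over windows of 3 by 3 bins that are 23 bins apart, as a percentage of windows (y axis), on chromosome 1 (grey, 526 windows) and chromosome 15 (blue, 425 windows). The LacO-TetO window (red, ±1 counting error) sits at 0.52, to the right of nearly all of them.

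The single pair of bins with both guide sites held 7 reads in 1A2 and 26 in 1F4. Their observed/expected values were 0.631 ± 0.238 and 1.86 ± 0.364, a log2 ratio of 1.56 ± 0.614. The 8 pairs around it differed by 0.41 ± 0.188, and the next ring of 16 pairs by 0.06 ± 0.114. Farther out the ratio went to -0.11 ± 0.102 at 19.2 kb and 0.17 ± 0.0890 at 25.6 kb. In all, 7 of the 9 bin pairs of the window were higher in 1F4. In a window of 5 by 5 bins the log2 ratio was 0.22 ± 0.0968, at percentile 96.8 of chromosome 1. The log2 ratio of a 7 by 7 bin window was 0.06 ± 0.0702, at percentile 76.0 of chromosome 1.

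**Figure D2:**
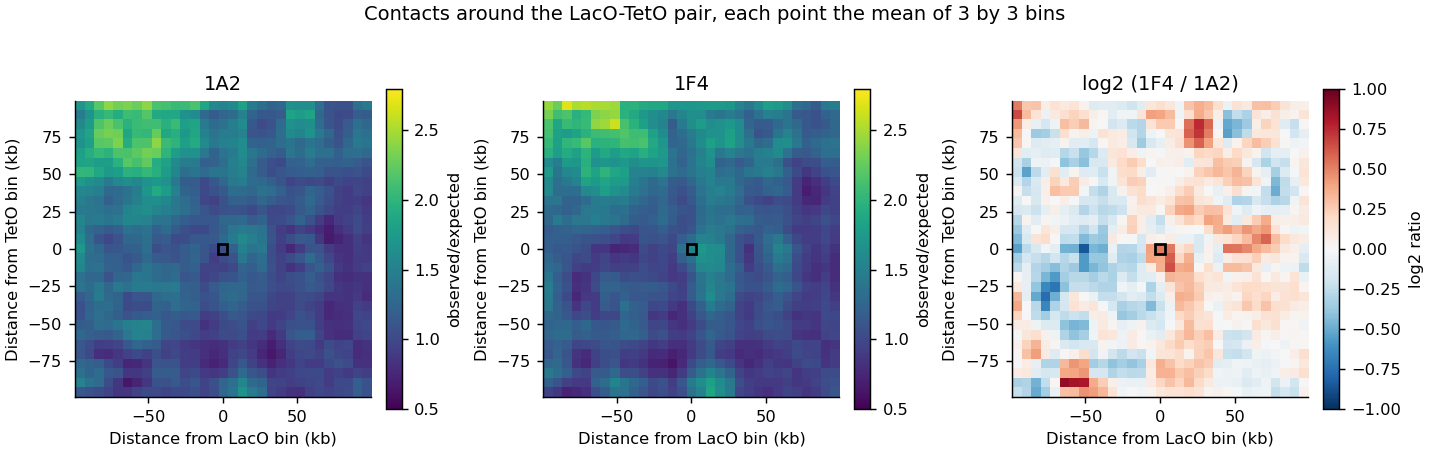
Observed/expected contact around the LacO-TetO pair in 1A2 (left) and 1F4 (middle) and the log2 ratio of 1F4 to 1A2 (right), each point the mean of 3 by 3 bins, by distance in kb from the LacO bin (x axis) and from the TetO bin (y axis). The small black square marks the bins with the insertion sites, at 1.05 in 1A2 and 1.51 in 1F4. Other patches of the ratio map are as dark.

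Whether the difference was shared by all contacts of an array was examined by summing the contacts of each array bin and its neighbours. Over all partners from 25 kb to 2 Mb the LacO bins had an observed/expected value of 0.849 in 1A2 (7215 reads) and 0.872 in 1F4 (9296 reads). The TetO bins stood at 1.03 in both lines, with 6436 and 8106 reads. The log2 ratios of 0.04 ± 0.0428 and 0.01 ± 0.0479 lay at percentiles 80.2 and 62.6 of 551 viewpoints on chromosome 1. The SD between those viewpoints was 0.0617. Balancing gives every bin the same sum, which limits how far such totals can differ. From unbalanced reads the log2 ratios were 0.09 ± 0.0372 for LacO and 0.09 ± 0.040 for TetO.

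By distance, LacO and TetO differed in opposite directions between 250 and 500 kb. In this band LacO was at 0.973 (1774 reads) in 1A2 and 1.11 (2494 reads) in 1F4, a log2 ratio of 0.20 ± 0.0601 at percentile 99.1 of chromosome 1. TetO was at 0.860 (1275 reads) in 1A2 and 0.762 (1400 reads) in 1F4. Its log2 ratio was -0.17 ± 0.0664, at percentile 1.81 of chromosome 1 and 5.82 of chromosome 15. For LacO the log2 ratio was 0.24 ± 0.0712 downstream (percentile 98.6 of chromosome 1) and 0.06 ± 0.108 upstream. For TetO it was -0.29 ± 0.0896 upstream (percentile 3.59) and -0.05 ± 0.0984 downstream. Whether the sides differ was not tested. TetO was also higher in 1F4 at 25 to 100 kb upstream, by 0.20 ± 0.10 at percentile 99.8, on the side that faces LacO. Between 500 and 1000 kb downstream its contacts were at 0.639 (359 reads) in 1A2 and 0.795 (520 reads) in 1F4, a log2 ratio of 0.32 ± 0.118 at percentile 98.9 of 452 viewpoints on chromosome 1, where the highest was 0.36.

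Several bands were looked at for each array. With both sides summed and the band with the largest absolute ratio picked in each viewpoint, 25% of the 551 viewpoints on chromosome 1 exceeded the 0.20 of LacO and 34.5% exceeded the 0.17 of TetO. The bands of 1 side were not compared in this way.

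**Figure D3:**
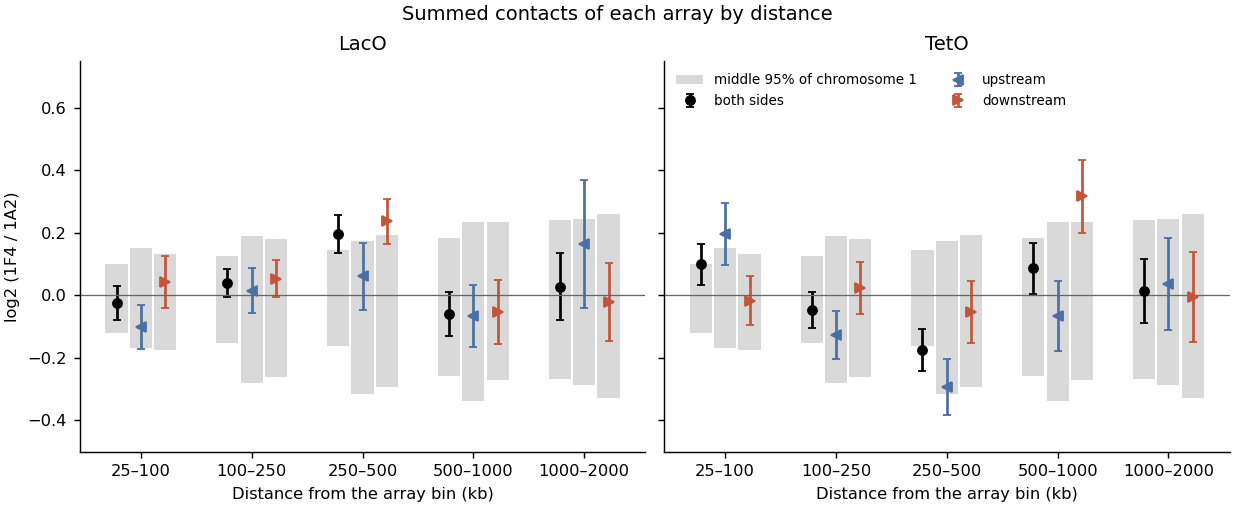
Log2 ratio of 1F4 to 1A2 (y axis) of the contacts of LacO (left) and TetO (right) in 5 bands of distance in kb (x axis), for both sides together (black circles) and for the upstream and downstream sides (blue and red triangles), ±1 counting error. Grey bars span the middle 95% of chromosome 1 viewpoints. Points above them include LacO at 250 to 500 kb, with both sides together (0.20) and downstream (0.24). TetO points above them include 25 to 100 kb upstream (0.20) and 500 to 1000 kb downstream (0.32). TetO at 250 to 500 kb with both sides together (-0.17) lies below.

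Single windows of the array bins showed where the LacO difference lay. Of the 107 LacO windows with at least 100 reads, 4 were past 1.5-fold higher in 1F4 (3.74%) and 0 were past 1.5-fold lower. Of these 4, the windows at 345.6, 352 and 358.4 kb from LacO overlap and share reads, so the 4 are not independent. The background on chromosome 15 was 1.15% higher and 1.27% lower, and on chromosome 1 it was 1.18% and 1.11%. With at least 50 reads, 9 of 190 LacO windows were past 1.5-fold higher (4.74%, beside 3.08% on chromosome 15) and 4 were lower. The share in both directions was then near the background, at 6.84% against 6.69%. At the minimum of 100 reads all 4 partner bins lay between 11814401 and 11859200 around the start of Npr3, the gene of natriuretic peptide receptor C, which clears natriuretic peptides from the circulation. The strongest of them joined LacO to the bin chr15:11840001-11846400, 4.572 kb upstream of the Npr3 start. It had an observed/expected value of 2.18 ± 0.338 in 1A2 (102 reads) and 3.96 ± 0.442 in 1F4 (205 reads), a 1.82-fold difference and a log2 ratio of 0.86 ± 0.276. Among the 13706 windows of chromosome 15 with at least 100 reads in each line, it was the one with the highest ratio. With at least 100 reads over both lines, the highest log2 ratio was 1.28, in a window without an array bin.

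With the bin of the Npr3 start itself, LacO had an observed/expected value of 2.24 ± 0.181 in 1A2 (158 reads) and 3.22 ± 0.191 in 1F4 (295 reads). The log2 ratio was 0.52 ± 0.144, at percentile 95.4 of windows with that separation on chromosome 1. The Npr3 start bin was higher in 1F4 with other partners too, with a median log2 ratio of 0.17 over the 49 bins from the upstream boundary to TetO. The value in 1B1 was 2.13 ± 0.167, which differed from that of 1A2 by less than the counting error. TetO, which is nearer to Npr3, was at 1.96 ± 0.164 in 1A2 (176 reads) and 2.10 ± 0.147 in 1F4 (251 reads), a log2 ratio of 0.10 ± 0.157.

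Over the 9 bins where the LacO profile differed most, chr15:11801601-11859200, chosen after the profile had been seen, LacO stood at 2.06 ± 0.141 in 1A2 (395 reads) and 3.07 ± 0.170 in 1F4 (701 reads). Its log2 ratio was 0.58 ± 0.128. TetO had 1.63 ± 0.135 and 1.72 ± 0.109 with the same 9 bins, a log2 ratio of 0.08 ± 0.150. The highest point of the LacO profile in the domain was at 332.8 kb in 1A2 and at 345.6 kb in 1F4. Toward the upstream boundary 7 of 22 LacO windows were higher in 1F4, toward TetO 11 of 20, and between TetO and the downstream boundary 30 of 40. These windows overlap their neighbours, and over all 448 LacO windows 50.4% were higher.

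**Figure D4:**
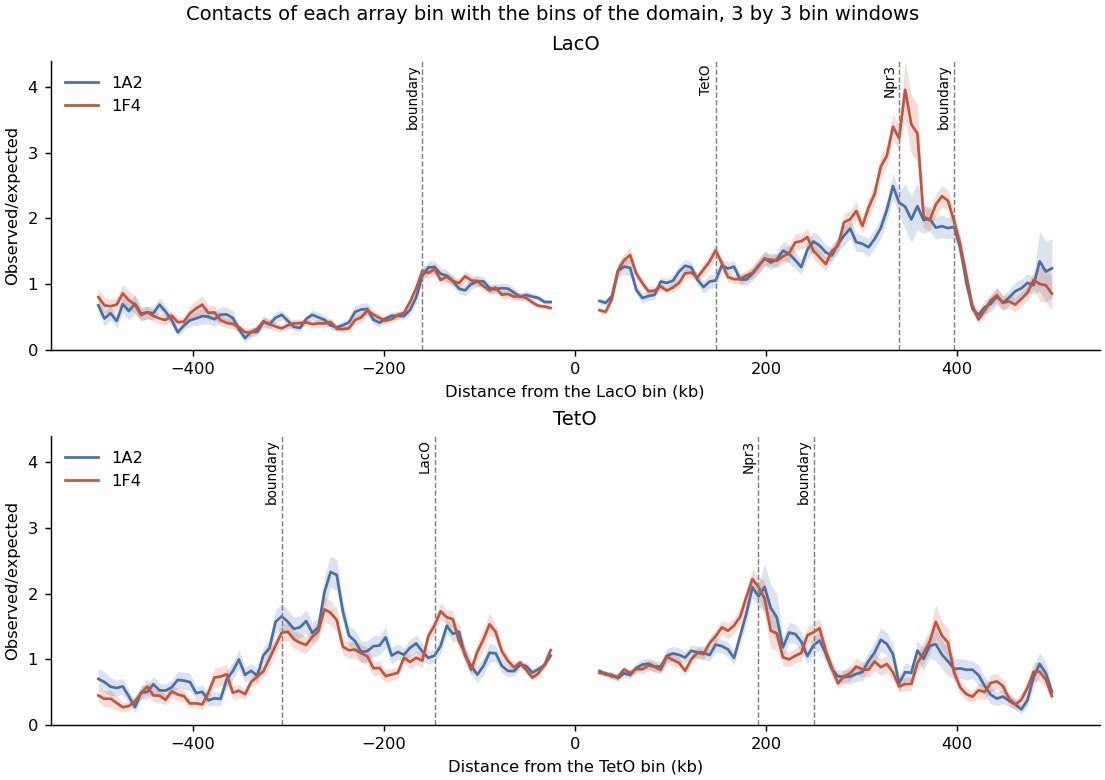
Observed/expected contact (y axis) of the LacO bin (top) and the TetO bin (bottom) with each bin at the distance in kb on the x axis, in 1A2 (blue) and 1F4 (red), as means of 3 by 3 bins with ±1 counting error shaded. At the Npr3 start bin LacO is at 3.22 in 1F4 and 2.24 in 1A2, and TetO at 2.10 and 1.96. At the bin upstream of the start, where the red line of LacO is highest, LacO is at 3.96 and 2.18. TetO is there at 1.93 in 1F4 and 2.10 in 1A2.

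The bin upstream of the Npr3 start also held the lowest of the named windows on chromosome 15. With the bin 57.6 kb upstream of LacO its contact was 3.93 ± 0.674 in 1A2 (107 reads) and 2.00 ± 0.241 in 1F4 (123 reads), a log2 ratio of -0.98 ± 0.302. The bin upstream of the start held 3372 reads in 1A2 and 4175 in 1F4, below the medians of 4333 and 5480 per bin of the region, and its errors are correspondingly wide.

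TetO had 1 window past 1.5-fold of 109, and it was lower in 1F4 (0.917%, beside 1.27% on chromosome 15). With at least 50 reads, 12 of 167 TetO windows were past 1.5-fold lower (7.19%, beside 3.61% on chromosome 15) and 5 were higher, which made 10.2% in both directions against 6.69%. The window at 100 reads joined TetO to chr15:11443201-11449600, upstream of LacO, at 1.33 in 1A2 (81 reads) and 0.742 in 1F4 (69 reads), a log2 ratio of -0.84 ± 0.264. Between LacO and the upstream boundary, 24 of 26 TetO windows were lower in 1F4, with a median log2 ratio of -0.24. Between the arrays, 15 of 20 were higher, with a median of 0.11. Over all 448 TetO windows, 49.3% were higher and the median was -0.016. Neighbouring windows share bins, so these counts are not of independent windows. Summed from 100 to 250 kb upstream, TetO had a log2 ratio of -0.13 ± 0.0764, at percentile 12.6 of chromosome 1.

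Insulation describes how far contacts cross a site, taken here as the log2 of the average balanced value over the 20 by 20 bin pairs that join the 20 bins on its left to the 20 on its right. Values are relative to the regional mean, and a border is a minimum. At the LacO bin it was -0.0013 in 1A2 and -0.122 in 1F4, a difference of -0.12. This difference was lower than in all but 7 of 518 bins on chromosome 1, where the SD was 0.0479 and the range -0.17 to 0.13. At TetO it was 0.060 and 0.130, a difference of 0.07 at percentile 93.4, which became -0.017 at percentile 37.0 in squares of 10 by 10 bins. Both lines had a local minimum in the bin downstream of LacO, at -0.022 in 1A2 and -0.125 in 1F4, so the dip was deeper in 1F4. In 1B1 the values were -0.130 at LacO and -0.085 at TetO.

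The dip at LacO was small beside the borders of the domain, which stood at -1.10 and -1.09 upstream and at -0.845 and -0.956 downstream in 1A2 and 1F4. The difference at the downstream border, -0.11, was about that at LacO. Over all boundaries the median difference was -0.039 on chromosome 15, where 8 of 10 were lower, and -0.032 on chromosome 1, where 9 of 13 were lower. The most negative differences outside the arrays were -0.15 on chromosome 15, at a boundary inside Pdzd2, and -0.17 on chromosome 1, in a gene-free bin 238 kb from the start of Tns1.

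**Figure D5:**
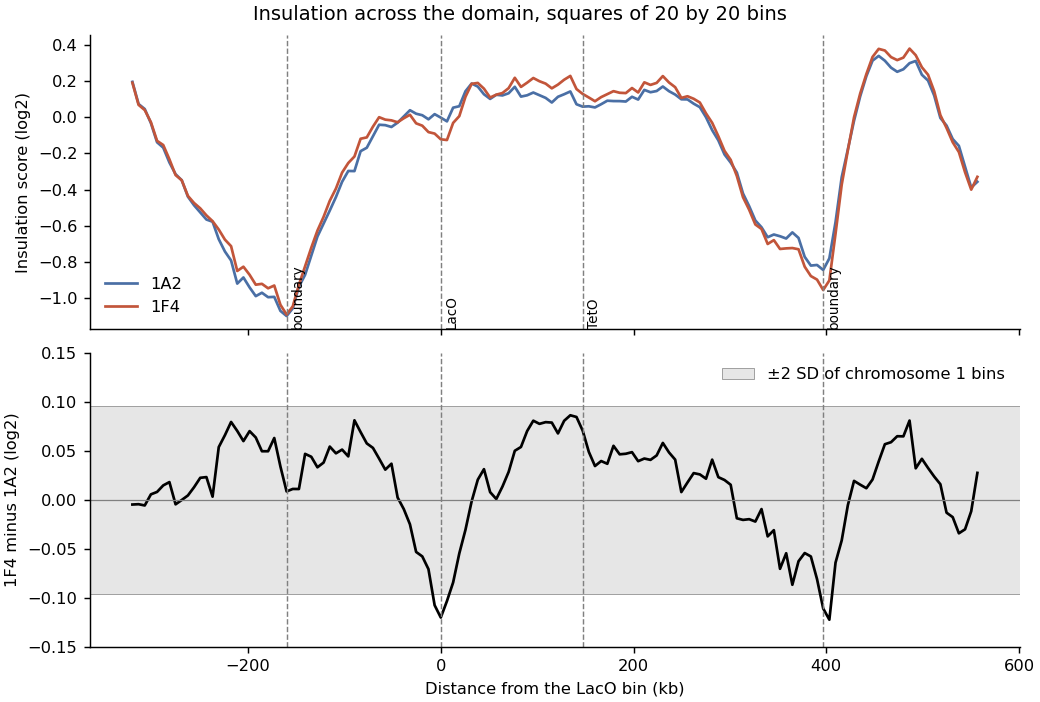
Insulation score (top, log2) in 1A2 (blue) and 1F4 (red) and the difference of 1F4 minus 1A2 (bottom, log2), by distance in kb from the LacO bin (x axis), with dashed lines at the arrays and at the boundaries of the domain. The grey band is ±2 SD of bins on chromosome 1; the difference leaves it at LacO (-0.12) and at the downstream boundary (-0.11).

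The arrays split the domain into 3 segments, whose contacts were summed as blocks. Within the segment upstream of LacO the observed/expected value was 1.00 in 1A2 and 1.06 in 1F4, a log2 ratio of 0.08 ± 0.0295 at percentile 99.3 of blocks of that shape on chromosome 1. Within the segment between the arrays it was 0.991 and 1.08, a log2 ratio of 0.13 ± 0.0412 and higher than in all 535 blocks on chromosome 1. Between these segments, across LacO, it was 1.12 in 1A2 and 1.06 in 1F4, a log2 ratio of -0.08 ± 0.0298 at percentile 9.14. Across TetO, between the middle and downstream segments, it was 1.32 and 1.42, a log2 ratio of 0.11 ± 0.0274 at percentile 98.4. The outer segments, whose contacts cross both arrays, contacted each other at 2.25 and 2.26, a log2 ratio of 0.001 ± 0.0219. Within the downstream segment the log2 ratio was 0.03 ± 0.0225. Blocks on chromosome 1 overlap their neighbours, so these percentiles are not over independent blocks. Several blocks were compared, and no allowance was made for this.

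Contacts between each array and the borders of the domain were measured next. The log2 ratio was 0.10 ± 0.167 for LacO with the upstream border, at 1.12 and 1.20, and 0.07 ± 0.171 with the downstream one, at 1.87 and 1.96. For TetO it was -0.24 ± 0.224 with the upstream border, at 1.65 and 1.40, and 0.22 ± 0.216 with the downstream one, at 1.21 and 1.41. The 95% counting intervals of all 4 included 0, and the widest, for TetO with the upstream border, ran from -0.67 to 0.20. The borders contacted each other at 10.1 ± 0.523 in 1A2 and 10.8 ± 0.501 in 1F4, a log2 ratio of 0.10 ± 0.10.

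Whether arrays that keep promoters also contact other promoters more was examined over the starts of all protein-coding genes in the region. The 22 genes with a start in it fall in 20 bins. With LacO, 14 of the 20 bins were higher in 1F4 and the median log2 ratio was 0.14, beside 50.4% and a median of 0.004 over all 448 LacO windows. With the array bin alone this median was -0.19, so its direction depends on the window. With TetO, 10 were higher and 10 lower, and the median was -0.002, beside 49.3% higher and a median of -0.016 over all TetO windows. Most promoters are far from the arrays and hold few reads. Only 4 bins reached 100 reads with either array, none of these was past 1.5-fold, and 2 of the LacO bins and 0 of the TetO bins differed by more than 2 counting errors. Over all windows of the same array, 4.91% of those of LacO and 6.47% of those of TetO did so.

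The 2 LacO bins were those of Npr3 and of Amacr, the gene of alpha-methylacyl-CoA racemase, where contact was 0.673 ± 0.150 in 1A2 (22 reads) and 1.25 ± 0.183 in 1F4 (52 reads). The log2 ratio of Amacr was 0.90 ± 0.384, at percentile 98.0 of chromosome 1. It was the highest of the promoters, followed by Agxt2, with 2 and 4 reads and an interval of -1.88 to 3.17, and Zfr at 0.62 ± 0.369 with 25 and 47 reads. The lowest were the bin shared by Drosha and 6030458C11Rik at -0.73 ± 0.715, Cdh6 at -0.66 ± 0.684 and Pdzd2 at -0.47 ± 0.429. Their reads were 10 and 7, 11 and 8, and 26 and 23 in 1A2 and 1F4.

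For TetO the highest were the bin shared by Brix1 and Rad1 at 1.13 ± 0.598 (9 and 27 reads), Adamts12 at 0.82 ± 0.456 (21 and 32 reads) and Dnajc21 at 0.44 ± 0.643 (9 and 17 reads). The lowest were Agxt2, with 2 and 1 reads and an interval of -5.00 to 1.93, Zfr at -0.60 ± 0.357 (44 and 43 reads) and Drosha at -0.51 ± 0.795 (7 and 9 reads). All of these were within 2 counting errors of 0.

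Tars and Sub1 start at either end of the domain. Tars, which encodes threonyl-tRNA synthetase, contacted LacO at 0.798 ± 0.0795 in 1A2 (108 reads) and 0.935 ± 0.0767 in 1F4 (158 reads), a log2 ratio of 0.23 ± 0.186. With TetO it had 1.57 ± 0.179 (96 reads) and 1.21 ± 0.127 (104 reads), a log2 ratio of -0.38 ± 0.224. This ratio was 0.14 ± 0.636 with the array bin alone, so its direction depends on the window, and -0.89 with the unmodified allele subtracted. Sub1, the gene of a transcriptional coactivator, had log2 ratios of -0.12 ± 0.313 with LacO and 0.02 ± 0.282 with TetO. Neither gene differed beyond 2 counting errors with either array.

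The lists by kind of gene were counted by bin, since Brix1 and Rad1 share one. Of the 8 bins of 9 housekeeping genes (Tars, Rad1, Brix1, Dnajc21, Sub1, Zfr, Mtmr12, Golph3 and Drosha), 4 were higher with LacO, with a median of -0.03, and 3 were higher with TetO, with a median of -0.22. Of 8 tissue-restricted genes (Npr3, Adamts12, Rxfp3, Slc45a2, Cdh6, Pdzd2, Agxt2 and C1qtnf3), 6 were higher with LacO, with a median of 0.24, and 5 with TetO, with a median of 0.09. Over all windows of the same array, 50.4% were higher with LacO and 49.3% with TetO. A ninth gene of this list, Prlr, starts outside the region.

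Windows that hold no array bin showed differences of the same size. The next highest ratios on chromosome 15 joined a bin inside Cdh6, a cadherin gene, to one 35.8 kb from its start, at 0.72 ± 0.207, and 2 bins inside Pdzd2 at 0.68 ± 0.197. The next lowest were 11424001 with 11616001 (the starts of 2 bins on either side of LacO), at 1.41 in 1A2 (159 reads) and 0.857 in 1F4 (120 reads), and a bin 78.9 kb from the C1qtnf3 start with one in Slc45a2, at -0.66 ± 0.156. On chromosome 1 the extremes ran from -1.01 ± 0.346 to 0.96 ± 0.404 and all 6 named windows lay between Tnp1 and Tns1 or inside Tns1. The strongest LacO window was at percentile 98.8 of chromosome 1 windows with its separation.

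Contact decay and coverage were compared between the libraries. The decay with distance was steeper in 1F4 on both chromosomes, with log2 ratios from 0.03 at 25 to 100 kb to -0.14 at 1000 to 2000 kb on chromosome 15 and from 0.03 to -0.14 on chromosome 1. Observed/expected values are taken at fixed separation and do not carry this. The share of reads in the 6 array bins and their neighbours was higher in 1F4 by 0.02 to 0.09 on the log2 scale, at percentiles 69.3 to 97.6 of chromosome 1 bins. The part of this coverage in the contact differences was not tested. From unbalanced reads the log2 ratio at the LacO-TetO window was 0.53 ± 0.165.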

How the data were processed

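Tiled Capture-C maps of 1A2 and 1F4 were analysed, 1 library each, with values of 1B1 and of 1B1 with cohesin degraded beside some results. The values are a balanced contact signal per pair of 6.4 kb bins that the authors made with HiC-Pro 2.11.4 on mm9, keeping valid unique pairs inside the targets and balancing them with ICE, so that each bin has the same sum and depth is lost. Reads were recovered from the deposited signal as whole multiples of 1 factor per bin. In both libraries 100% of the values lay less than 0.05 reads from an integer. Reads carried no molecular identifiers, so errors cover counting only.

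Each balanced value was divided by the mean at its separation in its region. Windows had 3 by 3 bins, at least 4 bins (25 kb) and at most 2 Mb apart. Windows were counted as past 1.5-fold with at least 100 reads over both lines. Boundaries were local minima of insulation in the mean of 1A2 and 1F4. Named sites were the array bins, the boundaries, the gene starts of the chromosome 15 region (Tars, Npr3 and Sub1 in full, others by counts with the 3 highest and 3 lowest), and the 3 highest and 3 lowest windows per chromosome with at least 100 reads in each line, 5 bins apart. Members and lists were chosen with earlier results of these data known. Scripts were tested on simulated data and used Python 3.11.15, numpy 2.4.6, scipy 1.17.1 and pandas 2.3.3. Alternatives covered the window, the expected value, balancing, the unmodified allele, read minimums and distance limits.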

Additional observations from a re-analysis of the deposited data

How the results depend on the processing

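Of 126 alternative values, 90 lay inside the 95% counting interval of the reported value or, for counts, within 1.5 times of it. This does not make them alike: from unbalanced reads the log2 ratio of TetO with the upstream border was 0.06 against -0.24, and those of all LacO and all TetO contacts were both 0.09 against 0.04 and 0.01. The log2 ratio of the LacO-TetO window was 1.56 with the array bins alone and 0.22 in windows of 5 bins, against 0.52 in windows of 3. It was 0.90 when the unmodified allele was subtracted (2 times the ratio minus 1). That subtraction assumes an unmodified allele at the level of 1A2, since no library without arrays was analysed. The log2 ratio of LacO with the Npr3 start was 0.97 with the array bin alone, 0.91 with the allele subtracted and 0.30 in windows of 5 bins, against 0.52. The median LacO-promoter ratio was -0.19 with the array bin alone, against 0.14 in windows of 3 bins, so its direction depends on the window. The TetO insulation difference was -0.017 in squares of 10 bins, against 0.07 in squares of 20, while that of LacO was -0.10 to -0.12 in every square and lay at percentiles 1.35 to 5.20 of chromosome 1. With at least 50 and at least 200 reads, the SD of window ratios was 0.312 and 0.188 on chromosome 15 and 0.315 and 0.187 on chromosome 1. Windows past 1.5-fold numbered 2734 and 66 on chromosome 15, 3981 and 124 on chromosome 1, 13 and 2 for LacO and 17 and 0 for TetO at these minimums. At 50 reads, 9 of 190 LacO windows were higher and 4 lower (6.84% in all), and 5 of 167 TetO windows were higher and 12 lower (10.2% in all), beside 6.69% on chromosome 15. Past 2-fold they numbered 26, 36, 0 and 0. Scaled to the same sum over all separations, the decay ratios in the 5 bands were -0.015, -0.053, -0.070, -0.150 and -0.182 on chromosome 15 and -0.012, -0.041, -0.059, -0.114 and -0.187 on chromosome 1, because the first off-diagonal then enters the sum. The cause of the other shifts was not tested. The 3-by-3 window at the arrays rests on 119 and 212 reads, and promoter windows beyond 500 kb on 1 to 68 reads per line. No paired analysis was possible because each line has 1 library. No library could be left out for the same reason.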

Other observations

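The region on chromosome X, which holds no array, was not part of the comparison. Of its 6992 windows with at least 100 reads, 2.73% were past 1.5-fold in either direction between 1F4 and 1A2, against 2.29% on chromosome 1. Their log2 ratios had an SD of 0.247, with 0.242 from counting. Between other lines, the SD on chromosome 15 was 0.254 for 1B1 over 1A2 and 0.268 for 1F4 over 1B1, next to 0.243 for 1F4 over 1A2. On chromosome 1 the SDs of the same pairs were 0.238, 0.248 and 0.235.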
